A study of Mus musculus with 12 samples.

Results

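The genes described here are those that have been proposed in the literature as transcriptional targets of the APP intracellular domain (AICD), the short cytoplasmic fragment of the amyloid precursor protein APP. They are Cd82, Gsk3b, Mme, Kat5, Trp53, Lrp1, Egfr, Ptch1, Stmn1 and Rcan1, and every probe set whose platform annotation gives such a symbol as its only gene was taken. This gave 28 probe sets for 9 of the 10 genes, of 45037 probe sets for 18193 genes in the whole table. No probe set of Trp53 met that condition in the annotation used here, and Trp53 was not analysed here. Gene expression was measured on 12 Affymetrix arrays of brain RNA from adult female mice of 38 to 40 weeks, on a C57BL/6 background reached by 6 generations of back-crossing. The 4 groups of 3 arrays were APPsα-DM hippocampus, APLP2-KO hippocampus, APPsα-DM prefrontal cortex and APLP2-KO prefrontal cortex. APPsα-DM mice have the genotype APPα/αAPLP2-/-, in which the App locus gives only the secreted ectodomain APPsα, and APLP2-KO mice have the genotype APLP2-/- with App intact. Both groups thus lack the APP relative APLP2, and wild-type mice were not analysed here. The series design gives 3 mice per genotype, so the 6 arrays of a genotype share mice, but the labels do not tie an array to a mouse. The p-values therefore measure the spread between these samples.

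APP is cut in its ectodomain by alpha- or beta-secretase, after which gamma-secretase cuts the remaining stub within the membrane and frees AICD. AICD binds the adaptor Fe65 (Apbb1), and with the histone acetyltransferase TIP60 (Kat5) it has been proposed to act on transcription in the nucleus. Which genes respond to it is disputed. Because APPsα-DM mice make no membrane-bound APP, they cannot make AICD from APP, and the absence of APLP2 removes the intracellular domain of that relative in both genotypes. APLP1, the other relative, is intact in both. Setting APPsα-DM against APLP2-KO thus asks whether the proposed targets differ when AICD of APP is missing. Membrane-bound APP and its fragments other than APPsα are missing with it, and these losses cannot be told apart here. The comparison of the tissues shows where in these brains the same genes are higher or lower.

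Signals are the deposited log2 values, on which a difference of 1 is a doubling, and they compare arrays within a probe set and not genes with each other. Over all 12 arrays the signal of App, the edited gene, followed the labels on its brighter probe sets. App (1427442_a_at) lay at 11.46 to 11.66 in APPsα-DM hippocampus against 13.44 to 13.49 in APLP2-KO hippocampus, and at 11.73 to 11.83 in APPsα-DM cortex against 13.38 to 13.50 in APLP2-KO cortex. The difference was -1.91 ± 0.07 (SE) in hippocampus and -1.67 ± 0.07 in cortex (limma, adjusted p = 3.1e-08 and 1.62e-07). On App 1420621_a_at it was larger, at -4.60 in hippocampus and -4.67 in cortex. The dim App probe sets 1438373_at and 1438374_x_at, at 2.49 to 3.44, were not called. The tissue labels also held: all 10 dentate gyrus and CA markers were called higher in hippocampus than in cortex in both genotypes. Of 9 measured cortical layer markers, 6 were called lower in hippocampus in APPsα-DM mice and 7 in APLP2-KO mice, where 1 was called higher. Arrays of a group correlated at r = 0.9947 to 0.9972. Ttr, a choroid plexus gene, reached 14.18 on cortex array 2 of APPsα-DM and 14.03 on cortex array 3 of APLP2-KO, against 8.20 to 9.42 on the other cortex arrays. Tissue differences below are also given without these arrays where that changes a call.

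None of the 28 probe sets differed between APPsα-DM and APLP2-KO at an adjusted p under 0.05 in cortex, in hippocampus or in the mean of both tissues. Of all probe sets, 0.00888% passed in each of these comparisons (4 of 45037). At an unadjusted p under 0.05 there was 1 of 28 in cortex (4.5% of all probe sets), 1 in hippocampus (4.11%) and 1 in the mean of both tissues (4.03%), and the smallest adjusted p was 0.9996. The difference between the genotype effects in hippocampus and in cortex passed for none of the 28 and for 0% of all probe sets, with 0 of 28 at an unadjusted p under 0.05 against 3.79% of all. Differences of the 28 probe sets ran from -0.32 to 0.19 in hippocampus and from -0.58 to 0.17 in cortex, with a median of 0.01 in both, where the median over all probe sets was 0.00. With 3 arrays a group, the probe set that stands for a gene (the brightest of its probe sets) would have needed a difference of 0.49 (Rcan1) to 1.74 (Mme) to be the next call. An absent call is therefore reported with the 95% interval of the difference, and it does not show that the genotypes were alike.

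**Figure D1:**
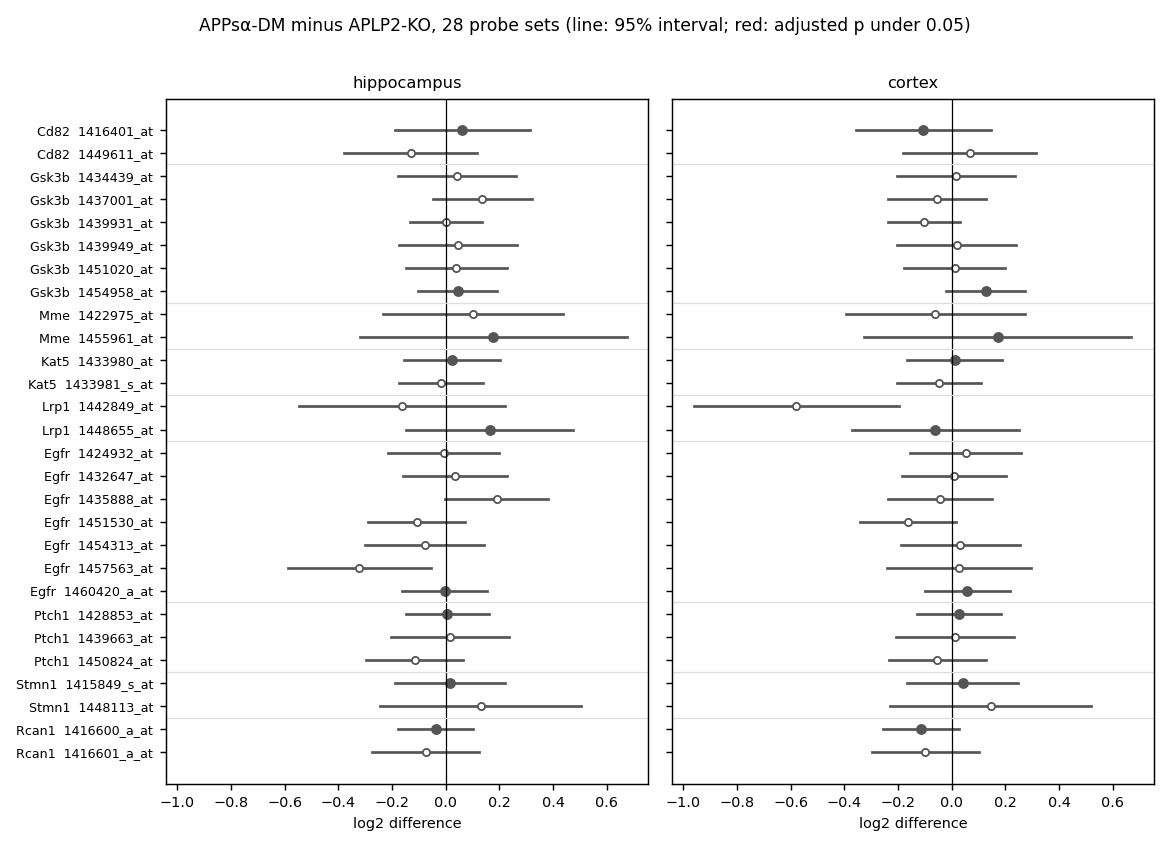
Difference in log2 signal, APPsα-DM minus APLP2-KO, for the 28 probe sets in hippocampus (left) and cortex (right), with 95% intervals as lines. Filled points are the probe sets that stand for a gene and open points are the others. None is drawn in red, the colour of an adjusted p under 0.05, and the interval of Lrp1 1442849_at in cortex is the one farthest from 0.

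Among the partners and targets in the nucleus, Kat5, the acetyltransferase TIP60 that AICD is thought to work with, had signals of 9.03, 8.85 and 8.97 in APPsα-DM hippocampus and 9.04, 8.98 and 8.76 in APLP2-KO hippocampus (1433980_at). In cortex the arrays read 9.03, 9.08 and 9.18 in APPsα-DM mice and 9.11, 9.06 and 9.10 in APLP2-KO mice. The groups overlapped in both tissues. The difference was 0.02 in hippocampus, with an interval of -0.15 to 0.20, and 0.01 in cortex, with an interval of -0.17 to 0.19. The second Kat5 probe set, 1433981_s_at, which by its name can also match other transcripts, moved with the first from array to array (r = 0.83 of the deviations from the group means, 12 arrays). Its genotype differences were -0.02 in hippocampus and -0.05 in cortex, and were not called.

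Mme and Lrp1 act on amyloid-beta, the peptide cut from APP: Mme encodes neprilysin, a membrane peptidase that degrades it, and Lrp1 encodes an endocytic receptor for apolipoprotein E that also takes part in its clearance. Mme (1455961_at) read 6.10, 5.69 and 5.99 in APPsα-DM hippocampus and 6.14, 5.74 and 5.37 in APLP2-KO hippocampus. In cortex it read 7.35, 6.73 and 7.64 in APPsα-DM mice and 7.25, 7.12 and 6.83 in APLP2-KO mice. The genotypes overlapped in both tissues, and the arrays of a group spread more for Mme than for any other of the 9 genes in cortex of APPsα-DM mice (SD 0.46). Its interval was accordingly the widest, from -0.32 to 0.67 around 0.18 in hippocampus and from -0.33 to 0.67 around 0.17 in cortex, or 0.800 to 1.60 and 0.798 to 1.59 as a ratio of APPsα-DM to APLP2-KO. The second Mme probe set, 1422975_at, gave 0.10 in hippocampus and -0.06 in cortex and was not called either.

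For Lrp1 the bright probe set and the dim one gave different values. The bright one, 1448655_at, read 9.57, 10.16 and 9.87 in APPsα-DM hippocampus, 9.49, 9.66 and 9.96 in APLP2-KO hippocampus, 9.74, 9.93 and 9.96 in APPsα-DM cortex and 10.01, 9.95 and 9.85 in APLP2-KO cortex. Its differences between genotypes were 0.16 (interval -0.15 to 0.47) in hippocampus and -0.06 (interval -0.37 to 0.25) in cortex, with overlapping arrays. The dim one, 1442849_at, whose mean signal of 5.10 is below the median of all probe sets (5.89), read 4.45, 4.46 and 4.84 in APPsα-DM cortex against 5.63, 4.94 and 4.93 in APLP2-KO cortex. These groups did not overlap, and the difference of -0.58 ± 0.18 had the smallest p of the 28 in cortex, 0.00634 unadjusted by limma and 0.9996 adjusted. In hippocampus the same probe set read 5.23, 5.07 and 5.44 in APPsα-DM mice and 5.38, 5.31 and 5.54 in APLP2-KO mice, which overlapped. Deviations of the 2 Lrp1 probe sets from their group means correlated at r = 0.21 over the 12 arrays.

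Egfr and Ptch1 encode cell surface receptors, for epidermal growth factor and for hedgehog proteins. Egfr (1460420_a_at) varied little in hippocampus, at 7.13, 7.21 and 7.18 in APPsα-DM mice and 7.17, 7.16 and 7.20 in APLP2-KO mice, a difference of 0.00 with an interval of -0.16 to 0.15. In cortex it read 7.24, 7.39 and 7.14 in APPsα-DM mice and 7.13, 7.26 and 7.20 in APLP2-KO mice (difference 0.06, interval -0.10 to 0.22). Of the other 6 Egfr probe sets, 1457563_at had the smallest p in hippocampus, -0.32 ± 0.12 with an unadjusted p of 0.0224 by limma, but its mean signal of 2.77 was the lowest of the 28. The brighter 1435888_at went the other way in hippocampus, with 6.80, 6.77 and 6.58 in APPsα-DM mice above 6.52, 6.55 and 6.51 in APLP2-KO mice. Its difference of 0.19 ± 0.09 had an unadjusted p of 0.0546 and was not called. Ptch1 (1428853_at) read 9.61, 9.77 and 9.63 in APPsα-DM hippocampus and 9.61, 9.71 and 9.66 in APLP2-KO hippocampus, and 9.82, 9.88 and 9.79 in APPsα-DM cortex and 9.90, 9.82 and 9.70 in APLP2-KO cortex. The arrays overlapped in each tissue, with differences of 0.01 (interval -0.15 to 0.16) in hippocampus and 0.03 (interval -0.13 to 0.18) in cortex.

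Gsk3b encodes a kinase that phosphorylates tau and beta-catenin, and Rcan1 encodes an inhibitor of the phosphatase calcineurin; both genes lie on chromosome 16, as App does. Gsk3b (1454958_at) read 10.49, 10.48 and 10.48 in APPsα-DM cortex, each array above the 10.40, 10.28 and 10.39 of APLP2-KO cortex. The difference of 0.13 ± 0.07 had an interval of -0.02 to 0.27 and was not called. In hippocampus the arrays overlapped, at 10.09, 10.26 and 10.19 in APPsα-DM mice and 10.20, 10.14 and 10.07 in APLP2-KO mice, a difference of 0.04 (interval -0.10 to 0.19). Averaged over the 6 Gsk3b probe sets, the cortical difference was 0.00. Rcan1 (1416600_a_at) went the other way in cortex, at 9.46, 9.45 and 9.41 in APPsα-DM mice, all below the 9.57, 9.53 and 9.56 of APLP2-KO mice. That difference was -0.11 ± 0.06 with an interval of -0.25 to 0.03, which as a ratio is 0.838 to 1.02, and it was not called. In hippocampus Rcan1 read 9.13, 9.24 and 9.04 in APPsα-DM mice and 9.21, 9.13 and 9.17 in APLP2-KO mice, overlapping, with a difference of -0.04 (interval -0.18 to 0.10).

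Stmn1 encodes stathmin, which destabilises microtubules, and Cd82 encodes a tetraspanin of the cell surface. Stmn1 (1415849_s_at, which by its name can also match other transcripts) was among the brightest probe sets on the array, above 99.8% of all. In hippocampus it read 12.71, 12.69 and 12.77 in APPsα-DM mice and 12.86, 12.83 and 12.44 in APLP2-KO mice. In cortex it read 13.37, 13.41 and 13.35 in APPsα-DM mice and 13.32, 13.33 and 13.36 in APLP2-KO mice. The genotypes overlapped in both tissues, and hippocampus array 3 of APLP2-KO stood below the other 2 of its group. The interval was -0.19 to 0.22 in hippocampus and -0.17 to 0.25 in cortex. Cd82 (1416401_at) read 8.87, 8.49 and 8.64 in APPsα-DM hippocampus against 8.69, 8.56 and 8.56 in APLP2-KO hippocampus. In cortex it read 8.52, 8.97 and 8.70 in APPsα-DM mice against 8.90, 8.81 and 8.79 in APLP2-KO mice, again overlapping. Its differences were 0.06 in hippocampus (interval -0.19 to 0.31) and -0.11 in cortex (interval -0.36 to 0.15). The second Cd82 probe set, 1449611_at, went the other way, at -0.13 in hippocampus and 0.07 in cortex, and was not called.

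Across all 28 probe sets, the 3 arrays of APPsα-DM lay entirely above or below those of APLP2-KO for 5 in hippocampus and for 4 in cortex. Over the whole table the same was so for 9.88% of probe sets in hippocampus and 8.73% in cortex. Two-sided exact permutation of 3 against 3 arrays cannot give a p below 0.1, so this count carries no call. In hippocampus, 2 of the 5 were higher in APPsα-DM (Gsk3b 1437001_at and Egfr 1435888_at) and 3 were lower (Egfr 1451530_at, Egfr 1457563_at and Ptch1 1450824_at). In cortex, 1 of the 4 was higher (Gsk3b 1454958_at) and 3 were lower (Gsk3b 1439931_at, Lrp1 1442849_at and Rcan1 1416600_a_at). No probe set was apart in both tissues.

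**Figure D2:**
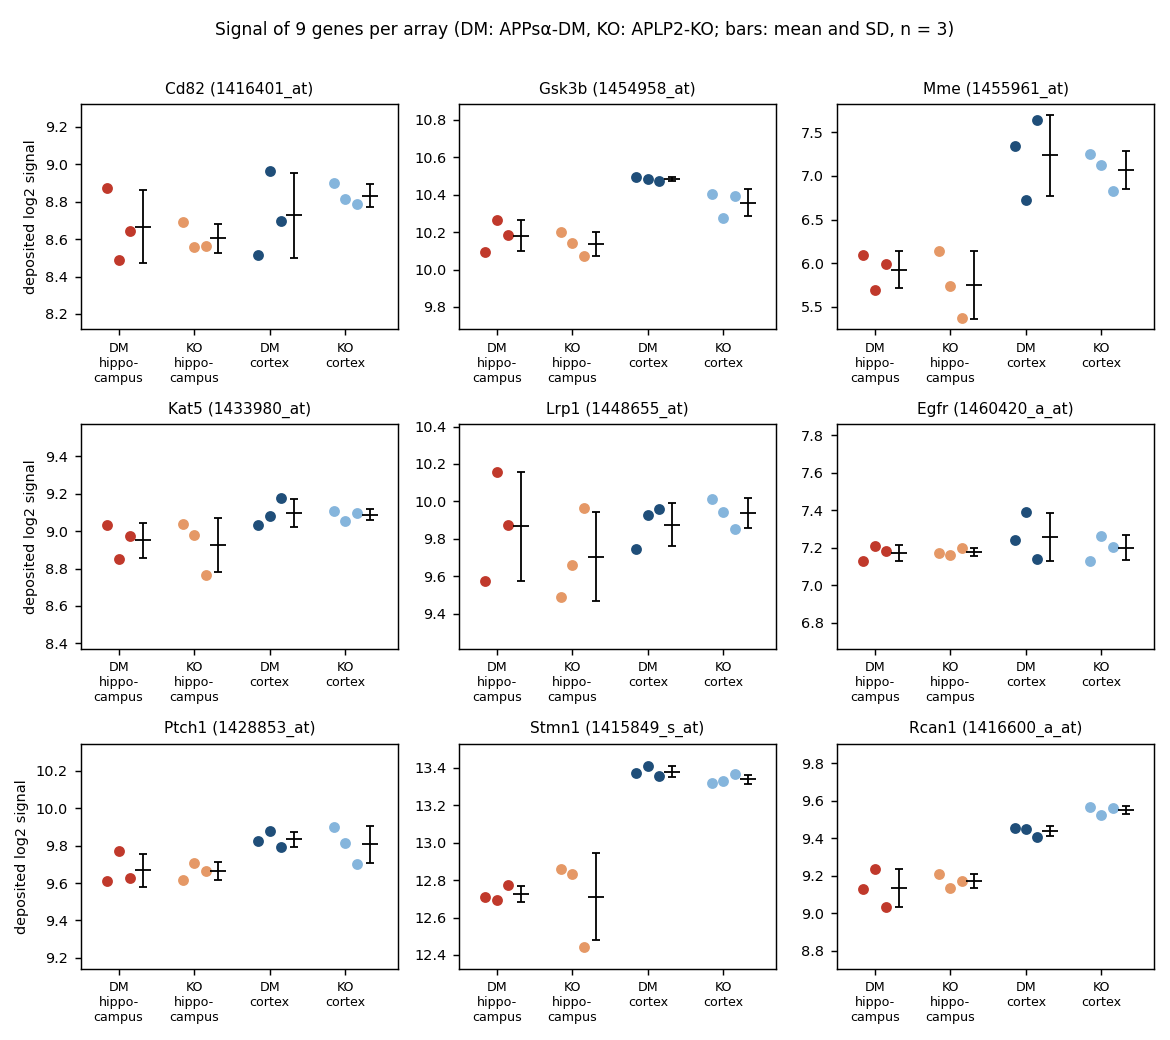
Deposited log2 signal of the 9 genes on each of the 12 arrays, 1 probe set a gene, in the order APPsα-DM hippocampus, APLP2-KO hippocampus, APPsα-DM cortex and APLP2-KO cortex. Points are arrays and bars are the mean and SD of 3 arrays; the vertical axes do not start at 0. The means lie lower in hippocampus than in cortex for all 9 genes. For Mme, Stmn1, Gsk3b and Rcan1 every hippocampal array lies below every cortical one. The genotypes overlap in hippocampus for all 9, and in cortex they are apart for Gsk3b and Rcan1.

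Between hippocampus and cortex several of these genes differed. By the 1 probe set that stands for a gene, all 9 had a lower mean signal in hippocampus than in cortex in both genotypes. The median difference (hippocampus minus cortex) was -0.16 in APPsα-DM mice and -0.23 in APLP2-KO mice, where the median over all genes was -0.02 and -0.01. The smallest were -0.01 (Lrp1, APPsα-DM) and -0.02 (Egfr, APLP2-KO). Of all 28 probe sets, 7 had a difference above 0 in APPsα-DM and 8 in APLP2-KO mice. In APPsα-DM mice, 4 of 9 passed as lower in hippocampus (Mme, Stmn1, Rcan1 and Gsk3b), against 7.34% of all genes, and 0 as higher, against 6.59%. In APLP2-KO mice, 3 of 9 passed as lower (Mme, Stmn1 and Rcan1), against 9.7% of all genes, and 0 as higher, against 6.78%. By probe set, 8 of 28 were lower and 1 was higher in APPsα-DM hippocampus (5.42% and 5.21% of all), and 8 were lower and 0 higher in APLP2-KO hippocampus (6.98% and 5.62% of all). Hippocampal arrays lay entirely below or above the cortical ones for 13 of 28 probe sets in each genotype, against 27.4% of all in APPsα-DM and 30.2% in APLP2-KO mice. Of these, 11 in APPsα-DM and 12 in APLP2-KO mice were lower in hippocampus, against 14.2% and 15.5% of all. In tissue pieces, fewer cells of a type and less RNA per cell cannot be told apart.

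**Figure D3:**
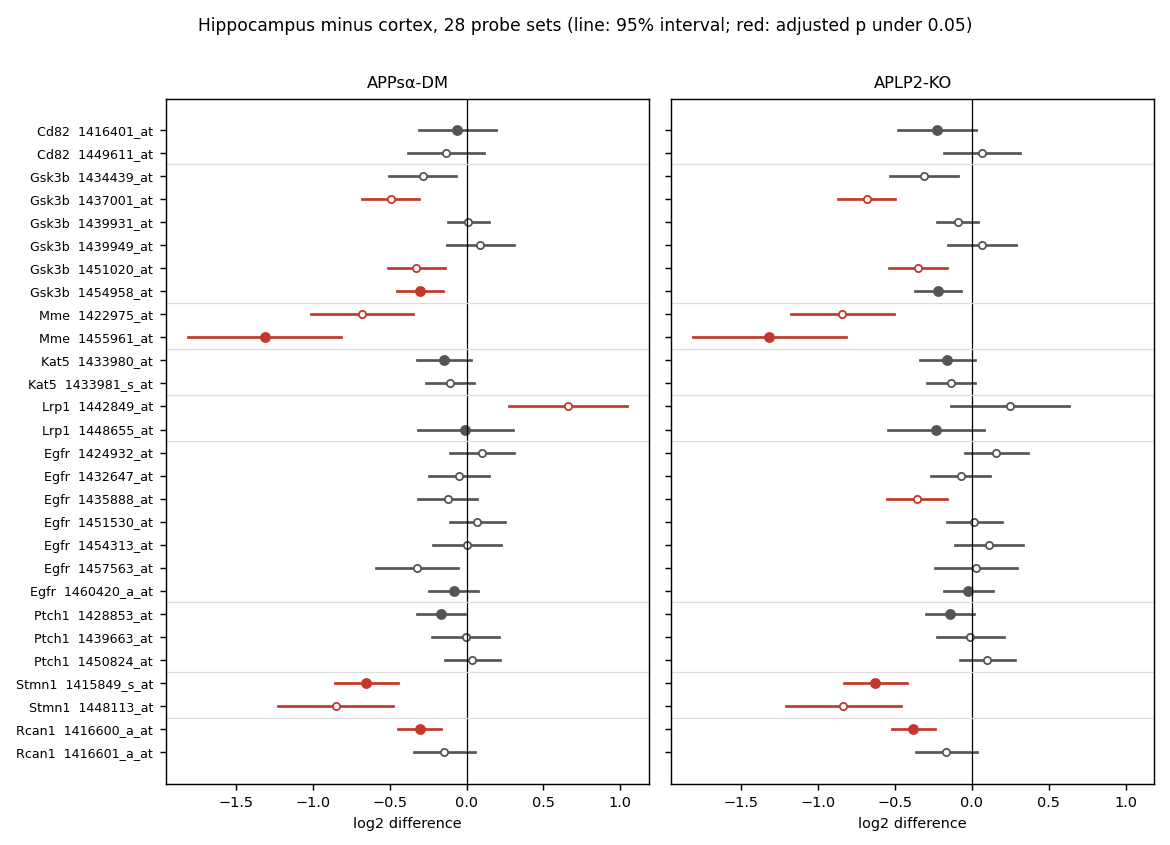
Difference in log2 signal, hippocampus minus cortex, for the 28 probe sets in APPsα-DM (left) and APLP2-KO mice (right), with 95% intervals as lines. Filled points stand for a gene, open points are its other probe sets, and red marks an adjusted p under 0.05. Both probe sets of Mme and of Stmn1 are red and left of 0 in both genotypes.

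Mme, the neprilysin gene, had the largest tissue difference of the 9 in both genotypes. By the array values given above, every hippocampal array (5.37 to 6.14) lay below every cortical array (6.73 to 7.64). The difference was -1.31 ± 0.23 in APPsα-DM mice, 2.48-fold lower in hippocampus (limma, adjusted p = 0.0023), and -1.32 ± 0.23 in APLP2-KO mice, 2.49-fold lower (adjusted p = 0.0019). The dimmer 1422975_at moved the same way. It read 4.78, 4.28 and 4.91 in APPsα-DM hippocampus against 5.57, 5.07 and 5.38 in APPsα-DM cortex, and 4.63, 4.57 and 4.48 in APLP2-KO hippocampus against 5.33, 5.53 and 5.35 in APLP2-KO cortex. Its differences were -0.68 ± 0.15 (adjusted p = 0.0121) and -0.84 ± 0.15 (adjusted p = 0.00261). In APPsα-DM mice 1422975_at was called in 11 of 13 alternative settings; its adjusted p was 0.0585 without cortex array 1 of that genotype and 0.0589 in a fit of the 6 APPsα-DM arrays alone.

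Markers of striatal neurons, which a frontal dissection can include, moved in the same direction. All 8 measured markers of that list were called lower in hippocampus in both genotypes, with a median difference of -2.32 in APPsα-DM and -2.23 in APLP2-KO mice. Their mean signal per array ran from 7.67 to 7.87 in APPsα-DM hippocampus, 7.52 to 7.89 in APLP2-KO hippocampus, 9.72 to 10.28 in APPsα-DM cortex and 9.59 to 9.97 in APLP2-KO cortex. No marker is at 0 on this scale. Within groups, deviations of Mme correlated with those of the means of 10 marker lists at r = -0.54 (choroid plexus) to 0.73 (cortical layer) over 12 arrays. The striatal list stood at 0.47, below activity-regulated genes (0.68) and microglia markers (0.51). The part of striatal neurons in the Mme difference was not tested.

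**Figure D4:**
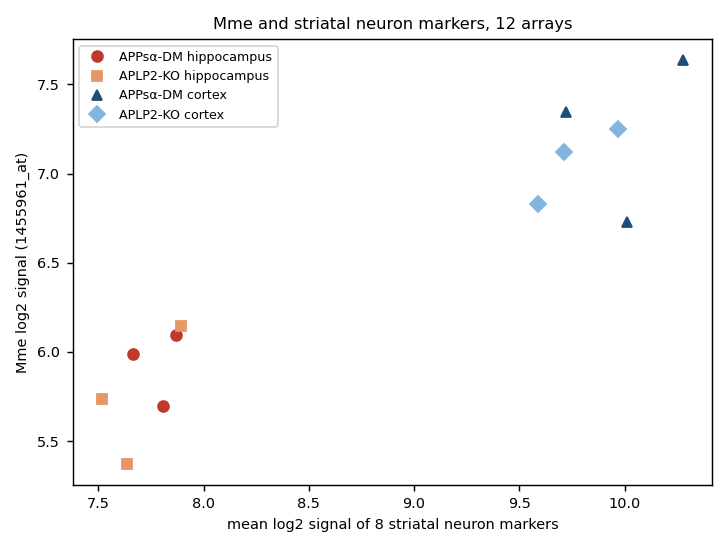
Log2 signal of Mme (1455961_at, vertical axis) against the mean log2 signal of 8 striatal neuron markers (horizontal axis) on the 12 arrays, with a symbol for each of the 4 groups. The 6 hippocampal arrays form the lower left cluster and the 6 cortical arrays the upper right one; within cortex, APPsα-DM array 2 has the lowest Mme at a marker mean of 10.01.

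Stmn1 was lower in hippocampus by both of its probe sets. With the values given above, every hippocampal array of 1415849_s_at lay below every cortical one. The difference was -0.65 ± 0.09 in APPsα-DM mice (1.57-fold lower, adjusted p = 0.000603) and -0.63 ± 0.09 in APLP2-KO mice (1.54-fold lower, adjusted p = 0.000669). The second probe set, 1448113_at, read 9.08, 9.22 and 9.24 in APPsα-DM hippocampus against 10.10, 9.88 and 10.12 in APPsα-DM cortex, and 9.47, 9.12 and 8.57 in APLP2-KO hippocampus against 9.97, 9.77 and 9.92 in APLP2-KO cortex. Again the tissues did not overlap. The differences of -0.85 ± 0.17 and -0.83 ± 0.17 were 1.80-fold and 1.78-fold reductions in hippocampus (adjusted p = 0.00613 and 0.00594). The 2 probe sets also deviated together within groups (r = 0.83 over 12 arrays), with APLP2-KO hippocampus array 3 the lowest of all 12 on both.

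Gsk3b had 6 probe sets, of which 4 were well above the median signal and 2 (1439931_at and 1439949_at, mean 5.31 and 5.47) below it. The 4 brighter ones were lower in hippocampus in both genotypes by their means, and which of them were called varied. Called in both genotypes was 1437001_at, at 9.51, 9.52 and 9.72 in APPsα-DM hippocampus against 10.05, 10.03 and 10.16 in APPsα-DM cortex, and 9.48, 9.43 and 9.43 in APLP2-KO hippocampus against 10.16, 10.26 and 9.98 in APLP2-KO cortex. It differed by -0.49 ± 0.08 (adjusted p = 0.00204) and -0.68 ± 0.08 (adjusted p = 0.000147). The brightest, 1454958_at, differed by -0.30 ± 0.07 in APPsα-DM mice (1.23-fold lower, adjusted p = 0.0117) and by -0.22 ± 0.07 in APLP2-KO mice (adjusted p = 0.0532), which was not called. In APLP2-KO mice it was called in 5 of 15 alternative settings. These were each array centred on its median (adjusted p = 0.0449), the filter at a mean of 6 (0.0184), eBayes with trend and robust settings (0.0175), the mean of the 6 Gsk3b probe sets (-0.27, adjusted p = 0.00314) and the replicate number as a block (0.0424). Without hippocampus array 1 of APPsα-DM its adjusted p in that genotype was 0.0528, and with the choroid plexus markers as a covariate 0.0541. Another probe set, 1451020_at, was called in both genotypes (-0.33 ± 0.09 with adjusted p = 0.0300, and -0.35 ± 0.09 with adjusted p = 0.0172). In APPsα-DM mice it was called in 8 of 14 alternative settings. There the call was lost without each of hippocampus arrays 1 and 2 and cortex arrays 1 and 3 (adjusted p between 0.0676 and 0.105), in a fit of the 6 APPsα-DM arrays alone (0.102) and with the choroid plexus markers as a covariate (0.115). In APLP2-KO mice it was called in 12 of 14, and lost without hippocampus array 3 (adjusted p = 0.0667) or cortex array 2 (0.0692). The fourth, 1434439_at, differed by -0.29 and -0.31 and was called in neither; without APPsα-DM hippocampus array 2 it was, at -0.39 (adjusted p = 0.0200) in that genotype. In APLP2-KO mice it was called in 3 of 14 alternative settings, with adjusted p between 0.0264 and 0.0371.

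Rcan1, the calcineurin inhibitor, was lower in hippocampus by its brighter probe set, whose hippocampal arrays (9.04 to 9.24) all lay below the cortical ones (9.41 to 9.57). The difference was -0.30 ± 0.06 in APPsα-DM mice (1.23-fold lower, adjusted p = 0.00859) and -0.38 ± 0.06 in APLP2-KO mice (1.30-fold lower, adjusted p = 0.00165). In a fit of the 6 APPsα-DM arrays alone the adjusted p was 0.0510. The other probe set, 1416601_a_at, read 7.57, 7.37 and 7.58 in APPsα-DM hippocampus against 7.64, 7.53 and 7.79 in APPsα-DM cortex, and 7.62, 7.57 and 7.55 in APLP2-KO hippocampus against 7.59, 7.82 and 7.83 in APLP2-KO cortex. It overlapped between tissues, with differences of -0.14 and -0.17 that were not called (adjusted p = 0.39 and 0.30). The 2 probe sets did not move together within groups (r = -0.56 over 12 arrays).

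Promoters are shown for genes called lower in hippocampus by the probe set that stands for the gene, Gsk3b in APPsα-DM mice only. Their shared direction follows from that choice, and whether they are regulated together was not tested. Of these genes, Gsk3b, Mme and Rcan1 had entries in the RefSeq table (assembly GRCm38.p6), and Stmn1 is named only. The windows hold the 250 bases before an annotated start, 5′ to 3′ on the gene's strand: Gsk3b at chr16:38088751-38089000 (plus strand), Mme start 1 at chr3:63294961-63295210 and start 2 at chr3:63295622-63295871 (plus strand), Rcan1 start 1 at chr16:92466170-92466419 and start 2 at chr16:92400079-92400328 (minus strand). Capitals mark GGGCGG, the GC box, and GGAAA, the core bound by NFAT factors, on either strand, so that CCGCCC and TTTCC are marked too.
Gsk3b: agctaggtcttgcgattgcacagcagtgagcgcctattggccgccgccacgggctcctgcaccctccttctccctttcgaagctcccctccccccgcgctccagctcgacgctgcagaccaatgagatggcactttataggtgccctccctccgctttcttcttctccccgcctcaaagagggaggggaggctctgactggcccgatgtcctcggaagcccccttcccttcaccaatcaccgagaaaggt
Mme start 1: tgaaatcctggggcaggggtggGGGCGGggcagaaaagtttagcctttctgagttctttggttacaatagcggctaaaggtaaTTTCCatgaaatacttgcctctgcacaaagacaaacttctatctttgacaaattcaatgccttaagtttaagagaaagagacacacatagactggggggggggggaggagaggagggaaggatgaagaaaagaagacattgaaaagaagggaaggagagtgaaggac
Mme start 2: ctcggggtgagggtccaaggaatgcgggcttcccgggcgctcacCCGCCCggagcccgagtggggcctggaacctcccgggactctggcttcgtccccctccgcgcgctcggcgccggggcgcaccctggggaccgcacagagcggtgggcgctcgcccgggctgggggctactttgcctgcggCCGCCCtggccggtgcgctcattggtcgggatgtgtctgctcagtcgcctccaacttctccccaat
Rcan1 start 1: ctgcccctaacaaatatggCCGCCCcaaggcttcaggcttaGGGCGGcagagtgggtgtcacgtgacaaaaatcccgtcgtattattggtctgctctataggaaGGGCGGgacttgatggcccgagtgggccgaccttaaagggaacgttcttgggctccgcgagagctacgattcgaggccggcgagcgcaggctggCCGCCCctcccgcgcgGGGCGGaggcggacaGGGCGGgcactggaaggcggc
Rcan1 start 2: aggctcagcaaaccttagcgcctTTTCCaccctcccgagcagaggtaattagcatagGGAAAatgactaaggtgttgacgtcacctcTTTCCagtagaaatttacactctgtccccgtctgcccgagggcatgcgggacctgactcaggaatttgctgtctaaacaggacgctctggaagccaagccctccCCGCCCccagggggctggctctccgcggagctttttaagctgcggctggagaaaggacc
Both strands were searched, and no match of one motif overlapped one of another in these windows. The Gsk3b window has a GC content of 62% and holds neither of the marked motifs, but 1 TATAAA. The windows of Mme differ: start 1, with 45.6% GC, holds 1 GC box and 1 GGAAA, while start 2, with 73.2% GC, holds 2 GC boxes and no GGAAA. Mme start 3, which is not printed, has 73.6% GC and holds 2 GC boxes and no GGAAA. Rcan1 start 1, with 64.8% GC, holds 6 GC boxes, and start 2, with 56.4% GC, holds 1 GC box and 3 GGAAA. Of 32851 such windows in the table, 32.7% hold GGGCGG, 55.6% GGAAA and 12.4% TATAAA, and the median GC content is 52.4%. None of the 3 motifs is in all 5 windows shown, and nothing follows from a match or its absence about what binds there.

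Lrp1 had the only probe set of the 28 that was called higher in hippocampus. The dim 1442849_at, with the array values given above, was 0.66 ± 0.18 higher in APPsα-DM hippocampus (1.58-fold, adjusted p = 0.0302) and 0.25 higher in APLP2-KO hippocampus, which was not called (adjusted p = 0.45). The call was lost without APPsα-DM hippocampus array 1 or 3 or APPsα-DM cortex array 1 or 2, with adjusted p between 0.0716 and 0.122, and, at 0.104, when APPsα-DM cortex array 2 and APLP2-KO cortex array 3, high in Ttr, were both omitted. With the choroid plexus markers as a covariate its adjusted p was 0.0673. Without APLP2-KO cortex array 1 the probe set was called in APLP2-KO mice (0.48, adjusted p = 0.0468). The bright Lrp1 probe set differed by -0.01 and -0.23 and was called in neither genotype. The tissue difference of 1442849_at in APPsα-DM minus that in APLP2-KO mice was 0.42, with an unadjusted p of 0.12 by limma.

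For Egfr, 1435888_at was lower in APLP2-KO hippocampus, at 6.52, 6.55 and 6.51 against 7.003, 6.97 and 6.68 in APLP2-KO cortex, a difference of -0.36 ± 0.09 (1.28-fold lower, adjusted p = 0.0185). In APPsα-DM mice it read 6.80, 6.77 and 6.58 in hippocampus against 6.88, 6.84 and 6.80 in cortex, a difference of -0.12 (adjusted p = 0.46). The tissues were apart in APLP2-KO mice and overlapped in APPsα-DM mice. The difference between these 2 tissue effects was 0.23 with an unadjusted p of 0.088 by limma, so the genotypes were not shown to differ in it. The call in APLP2-KO mice was lost without cortex array 1 or 2 or hippocampus array 1 or 3 of that genotype, with adjusted p between 0.0504 and 0.0774. The Egfr probe set with the highest signal differed by -0.08 in APPsα-DM and -0.02 in APLP2-KO mice and was not called.

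Cd82, Kat5 and Ptch1 were not called between tissues by any of their 7 probe sets. Kat5 had differences of -0.15 in APPsα-DM and -0.16 in APLP2-KO mice, with intervals of -0.33 to 0.03 and -0.34 to 0.02. Ptch1 differed by -0.16 and -0.14, and its hippocampal arrays (9.61 to 9.77) lay below the cortical ones (9.79 to 9.88) in APPsα-DM mice but overlapped with them in APLP2-KO mice. Cd82 differed by -0.06 and -0.23. By the 1 probe set that stands for a gene, both cortical means lay above both hippocampal means for all 9 genes. For Mme, Stmn1, Gsk3b and Rcan1 every cortical array also lay above every hippocampal one. The hippocampal arrays of the 2 genotypes overlapped for all 9 genes, while in cortex the genotypes were apart for Gsk3b and Rcan1.

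The pathways around these genes were looked at through 12 lists with 114 genes, 106 of them measured. Between genotypes only App itself passed, in hippocampus, in cortex and in the mean of both tissues, against 0.011% of all genes in each comparison; without App none of the other measured genes did, and none passed for the difference between the genotype effects. Between tissues, 4 of 106 were higher and 15 lower in APPsα-DM hippocampus, 17.9% against 13.9% of all genes, and 5 were higher and 16 lower in APLP2-KO hippocampus, 19.8% against 16.5% of all. By direction, 6.59% of all genes were called higher and 7.34% lower in APPsα-DM hippocampus, and 6.78% and 9.7% in APLP2-KO hippocampus. Lower calls thus made up a larger share of the lists than of all genes, and higher calls a smaller one. That difference was not tested.

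Of the 9 measured genes for AICD release and its nuclear partners, 2 were lower in hippocampus in both genotypes. Aph1a, a gamma-secretase subunit, differed by -0.59 ± 0.11 in APPsα-DM mice (adjusted p = 0.00269) and -0.85 ± 0.11 in APLP2-KO mice (adjusted p = 0.000148). Apbb1, the AICD adaptor Fe65, differed by -0.25 ± 0.06 (adjusted p = 0.0130) and -0.30 ± 0.06 (adjusted p = 0.00321). Med12, a Mediator subunit, was higher in APPsα-DM hippocampus (0.41 ± 0.11, adjusted p = 0.0254). Among 11 further genes proposed to respond to AICD, Wasf1, an actin regulator also called WAVE1, was higher in hippocampus in both genotypes (0.39 ± 0.07 in APPsα-DM and 0.46 ± 0.07 in APLP2-KO mice, adjusted p = 0.00369 and 0.000951). Pink1, a mitochondrial kinase, was lower in APLP2-KO hippocampus (-0.32 ± 0.08, adjusted p = 0.0161), and App in APPsα-DM hippocampus (-0.24 ± 0.07, adjusted p = 0.0424). On App 1420621_a_at the tissues overlapped in APPsα-DM mice, at 7.87 to 7.98 in hippocampus and 7.70 to 8.20 in cortex. Of 14 genes of the TIP60 complex, the subunit gene Yeats4 was lower in both genotypes (-0.21 and -0.25) and Morf4l2 higher in APLP2-KO mice (0.27).

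Beside Mme, 1 of 7 genes of amyloid-beta degrading peptidases was lower in hippocampus: Ece1, endothelin-converting enzyme, by -0.35 ± 0.07 in APPsα-DM and -0.41 ± 0.07 in APLP2-KO mice (adjusted p = 0.00338 and 0.00103). Of 7 genes of the LDL receptor family and its partners and 5 tetraspanins, none passed in either genotype. Of 9 genes of ErbB receptors and ligands, the ligand genes Tgfa (-0.54 and -0.37) and Nrg1 (-0.67 and -0.68) were lower in hippocampus of APPsα-DM and of APLP2-KO mice. Of 10 hedgehog genes, 2 were higher in both genotypes, Smo (0.53 and 0.53), which signals downstream of Ptch1, and the co-receptor Cdon (0.50 and 0.38). The ligand Shh (-0.55 in APPsα-DM and -0.79 in APLP2-KO mice) and the co-receptor Boc (-0.43 and -0.68) were lower.

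Around Gsk3b, 2 of 9 genes were lower in hippocampus in both genotypes, the scaffold Apc (-0.33 in each) and the Wnt receptor Fzd3 (-0.51 in APPsα-DM and -0.49 in APLP2-KO mice), and beta-catenin (Ctnnb1) was higher in APLP2-KO mice (0.23). Of 11 calcineurin and NFAT genes, Rcan2, a paralogue of Rcan1, was lower, at -0.88 ± 0.10 in both genotypes (adjusted p = 8.18e-05 in APPsα-DM and 6.54e-05 in APLP2-KO mice). Of the 3 other stathmin genes, Stmn4 was lower (-0.58 in each). Of 11 genes of the p53 pathway, the cell cycle inhibitor Cdkn1a (-1.19 in APPsα-DM and -1.22 in APLP2-KO mice) and the apoptosis gene Pmaip1 (-0.92 and -1.19) were lower in both genotypes, and Gadd45a in APLP2-KO mice (-0.90). Tests between these steps and those of the 9 genes were not made.

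Over the 12 arrays, the genes whose deviations from the 4 group means were most like those of a member were listed among 9471 candidates with a mean signal of at least 7 (9472 for Mme). Vbp1 (r = 0.97) and Htr1b (r = 0.96) came first for Mme, Cep19 (r = 0.98) and Ccdc177 (r = 0.97) for Gsk3b, and Ccdc80 and Tspyl3 (r = 0.95 each) for Stmn1. For Rcan1 they were Ift20 (r = 0.92) and Kcnip1 (r = 0.91), and for Cd82 Gabarap (r = 0.99) and Acadl (r = 0.95). For Lrp1 they were Arhgef2 (r = 0.98) and Ube2o (r = 0.96), for Kat5 Slc35b1 (r = 0.97) and BC005624 (r = 0.96), for Egfr Wbp2nl (r = 0.97) and Sema6c (r = 0.95), and for Ptch1 Mapk11 (r = 0.96) and Syt13 (r = 0.94). These are the highest correlations among all candidates, on arrays that share mice, and are given as a description.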

How the data were processed

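RNA of prefrontal cortex and hippocampus was hybridised to 12 one-colour Affymetrix arrays. The authors made the deposited log2 values, which run from 1.80 to 14.36, with RMA in affy, per the submitters' processing notes (versions not given in the sources used here). Joint normalisation of the 12 arrays is not stated. The number of arrays limits the precision.

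Without the 64 controls, 45037 of 45101 probe sets entered the tests, dim ones included. The platform annotation names 1 gene for 34945 probe sets, several for 932 and none for 9160, and 34741 of those with 1 gene matched the reference table (GRCm38.p6). In R 4.3.3, limma 3.58.1 (lmFit, eBayes) fitted 4 group means over 12 arrays (8 residual and 4.25 prior degrees of freedom). The mean genotype effect used the mean of the hippocampal and cortical arrays of each genotype and replicate number, 3 against 3. P-values are two-sided, Benjamini-Hochberg adjusted over all 45037 probe sets, with a threshold of 0.05. Errors are moderated standard errors (SE), or SD of 3 arrays, and intervals cover 95%. Same-numbered arrays of the 2 tissues deviated together in all 3 APLP2-KO pairs (r = 0.109, 0.131 and 0.155), against -0.140 to 0.0226 for different numbers. By this check, and not by the labels, the numbers were taken to pair the APLP2-KO tissues. The tissue tests from the fit of 4 group means did not use this pairing, while the replicate block among the alternatives did. That block and the mean genotype effect used the numbers in APPsα-DM mice too, where this check was not met. The script was tested on simulated data.

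The probe set with the highest mean over the 12 arrays stands for a gene. All probe sets of the members are reported; of the other lists, the genes that passed, or those with the smallest p, may be named. The members and lists were chosen with earlier results of these data known. Alternatives were another centring, quantile normalisation, a filter at a mean of 6, eBayes with trend and robust settings, gene means, only the compared arrays, a replicate block, a choroid plexus covariate, leaving out arrays in turn and, chosen after seeing the data, leaving out 2 cortex arrays high in Ttr.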

Additional observations from a re-analysis of the deposited data

How the results depend on the processing

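No genotype call was gained under any alternative: the lowest adjusted p among the 28 probe sets was 0.815 in cortex (15 settings), 0.872 in hippocampus (14), 0.898 for the mean of both tissues (12) and 0.903 for the difference between the genotype effects (20). The differences, uncalled, changed sign in some setting for 16 of 28 probe sets in hippocampus and 19 in cortex. Between tissues, Mme 1455961_at and Stmn1 1415849_s_at were called lower in hippocampus in all 15 settings in both genotypes, with Mme at -1.57 to -0.996 in APPsα-DM and -1.51 to -1.08 in APLP2-KO mice. The 1 probe set called higher in APPsα-DM hippocampus, Lrp1 1442849_at with a mean of 5.10, was not tested with the filter at a mean of 6. Its call was lost with the choroid plexus covariate and when both cortex arrays with high Ttr were left out. The count called higher was 0 to 1 when single arrays were left out, against 1599 to 2107 of all 45037 probe sets. The 8 called lower became 5 in a fit of the APPsα-DM arrays alone. Over the whole table, lower calls fell there too, from 2441 to 1875. In APLP2-KO mice, the 0 called higher became 0 to 2 when single arrays were left out, with 2 (Lrp1 1442849_at and Egfr 1424932_at) without APLP2-KO cortex array 1. Of all probe sets, 1759 to 2257 were called higher in these settings, and 2115 without that array. Averaging probe sets left 4 of 9 genes lower in both genotypes, Gsk3b included in APLP2-KO mice. Of all 18193 genes, 1525 were then lower in APPsα-DM hippocampus and 1864 in APLP2-KO hippocampus.

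Outside the APLP2-KO tissue pairs, the check did not bear out the replicate numbers as pairs. The mean genotype effect and the replicate block still used these numbers in APPsα-DM mice. In APPsα-DM mice, same-numbered arrays of the 2 tissues correlated at r = 0.0193 to 0.0785, against -0.0649 to 0.0360 for different numbers. These values were smaller than in APLP2-KO mice, a difference in degree. Same-numbered arrays of the 2 genotypes correlated at r = -0.25 to 0.21, against -0.23 to 0.25 for different numbers. With the replicate number as a block, 0 member probe sets were called between genotypes, against 5 of all 45037 in each tissue. For these genotype tests the block also matched numbers across genotypes. In APPsα-DM hippocampus 8 were lower and 1 higher, against 2707 and 2622 of all. In APLP2-KO hippocampus 9 were lower, against 3426 of all. There Gsk3b 1454958_at was added (limma, adjusted p = 0.0424), and no other member call changed. Over the whole table, the mean genotype effect gave 4 calls, and 13 without replicate 3 of APLP2-KO; tissue calls were 4789 in APPsα-DM and 5672 in APLP2-KO mice, and 2863 and 3261 with gene means, which test 18193 genes instead of 45037 probe sets.

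The number of arrays limits the precision, with a median SE of 0.0938 for a difference within a tissue, and 10 of the 28 probe sets had a mean signal below the median of all.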

Other observations

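Other gene lists drawn up for these tissues were also compared between hippocampus and cortex, beside the proposed AICD targets. Of all genes, 6.59% were called higher and 7.34% lower in APPsα-DM hippocampus, and 6.78% and 9.7% in APLP2-KO hippocampus. Of 9 astrocyte markers, 3 were called higher and 1 lower in hippocampus in both genotypes. All 12 activity-regulated genes had a lower mean in hippocampus than in cortex in both genotypes, of which 2 were called in each, with a median difference of -0.47 in APPsα-DM and -0.63 in APLP2-KO mice. Of 11 endothelial and pericyte markers, 5 were called lower in hippocampus in APLP2-KO mice and 0 in APPsα-DM mice, and no marker passed for the difference between these tissue effects. Of 8 microglia markers, none was called in either genotype. Of 9 oligodendrocyte and precursor markers, 0 were called in APPsα-DM mice and 1 was called higher in APLP2-KO mice. Of 10 adult neurogenesis markers, 1 was called higher and 1 lower in APPsα-DM hippocampus, and 2 higher and 1 lower in APLP2-KO hippocampus. The 10 choroid plexus markers all had a higher mean in hippocampus in both genotypes and none was called; their mean signal ran from 5.95 to 8.80 in APPsα-DM hippocampus, 5.74 to 7.73 in APLP2-KO hippocampus, 5.16 to 7.77 in APPsα-DM cortex and 5.08 to 7.31 in APLP2-KO cortex.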
